A study of Mus musculus with 16 samples.

Results

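The solute carriers are the membrane proteins that move small molecules across the plasma membrane and the membranes of organelles. They were read here from 16 Illumina mouse bead arrays. Every probe whose deposited symbol begins with Slc and a digit was taken. Slc2a1, Slc4a1, Slc11a2, Slc25a37 and Slc40a1 were left out. That gave 400 probes for 272 genes out of 25697 probes in all. Of these, 195 probes for 150 genes had a detection p-value under 0.05 on at least 4 arrays, and the brightest such probe stood for each gene, among 9680 genes tested. The other members were 84 genes with no probe detected on any array and 38 detected on too few, and these were not tested. The filter was passed with exactly 4 arrays by Slc22a9, Slc44a4 and Slc7a3 and missed with 3 by Slc17a8, Slc1a2, Slc30a8, Slc34a1, Slc4a4 and Slc6a18. A further 60 genes that have a Slc name today stood in the table under older symbols and are not members. Slc9a3r1, Slc9a3r2, Slc4a1ap and Slc7a6os are tested members by name but are not carriers.

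The RNA came from marrow cells enriched for haematopoietic stem cells (HSC), from mice of the background spelled C57B16 in the labels. The cells were wild-type (WT) with the CD45.1 allele of a leukocyte surface protein, or carried a knock-in of an activated Jak2 kinase (Jak2VF) with the CD45.2 allele. Genotype and CD45 allele therefore cannot be told apart. Treatment lasted 4 weeks with vehicle or with 10000 units of interferon alpha each day, giving 4 groups of 4 arrays: WT with vehicle, WT with interferon, Jak2VF with vehicle and Jak2VF with interferon. Whether each array stands for its own animal is not stated in the labels, so the p-values reflect the scatter of these samples, some of which may be technical. They give neither the age of the animals nor the driver of the knock-in. In bulk RNA, fewer cells of a type and less RNA per cell cannot be told apart.

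Solute carriers are grouped into families by sequence. Some exchange one amino acid for another, some couple uptake to sodium, some work only with a partner glycoprotein, and the Slc25 family serves the inner membrane of mitochondria. Red cell precursors import amino acids, folate, nucleosides and mitochondrial glycine for growth and haem synthesis. Cells of the platelet lineage and mast cells load amines into storage granules.

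The arrays differed in brightness, with mean intensity per array of 305 ± 122 (SD, n = 4) in WT vehicle, 684 ± 305 in WT interferon, 498 ± 100 in Jak2VF vehicle and 884 ± 218 in Jak2VF interferon. Of the 150 members, 75 to 140 were detected per array, the fewest in WT vehicle replicate 3, and 68 were detected on all 16. Over all genes tested, 2.27% were called (limma adjusted p under 0.05) with interferon in WT cells and 16% in Jak2VF cells. Between genotypes 0.424% were called with vehicle and 17.7% with interferon. Among markers of other cells, 15 of 18 erythroid genes were measured. Of these 4 (26.7%) rose with interferon in WT cells and 10 (66.7%) in Jak2VF cells. In Jak2VF against WT cells 3 (20%) were higher with vehicle and 8 (53.3%) with interferon. None of the 15 fell. Their summed normalized intensity was 7281 to 9073 in WT vehicle, 11049 to 16511 in WT interferon, 9464 to 13558 in Jak2VF vehicle and 22297 to 30023 in Jak2VF interferon. Of 9 measured megakaryocyte genes out of 10, 7 (77.8%) fell with interferon in Jak2VF cells. In Jak2VF against WT cells with interferon 8 (88.9%) of the 9 were lower. Their sum was 34369 to 47070 in WT vehicle, 37937 to 50477 in WT interferon, 24498 to 30729 in Jak2VF vehicle and 9465 to 21475 in Jak2VF interferon. All 7 measured eosinophil genes (100%) fell with interferon in each genotype, and none was called between genotypes. Of 14 measured stem cell genes 5 (35.7%) fell with interferon in Jak2VF cells. Between genotypes with interferon 5 were lower and 1 was higher in Jak2VF cells (42.9%). Kit, Fgd5 and Flt3, which are defining stem and progenitor markers, had no probe passing the filter. The T cell genes Cd3e, Cd3d, Cd3g, Cd4 and Cd8a had none either. Of 13 measured granulocyte and monocyte genes 3 (23.1%) fell with interferon in each genotype, among them S100a8 (−3.13 in WT and −2.43 in Jak2VF cells on the log2 scale). In Jak2VF against WT cells with interferon 1 (7.69%) was lower, a share under the 17.7% of all genes. Of 6 measured B and plasma cell genes 2 (33.3%) fell with interferon in WT cells and 3 (50%) in Jak2VF cells, among them Mzb1 (−4.41 and −3.13). Between genotypes with interferon 2 (33.3%) were lower in Jak2VF cells. Of 2 measured T and NK cell genes Nkg7, of cytotoxic lymphocytes, fell by 0.94 with interferon in Jak2VF cells. It was lower between genotypes with interferon at −0.95. The other gene was not called and its changes had the opposite sign, with list medians of −0.42 and −0.34. Erythroid and megakaryocyte calls, like calls over all genes, were most numerous in the 2 comparisons that also hold most carrier calls described next. As many eosinophil, granulocyte and monocyte genes fell with interferon in WT as in Jak2VF cells. The part of any of these shifts in the carrier results was not tested.

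Promoter sequences are shown for an amino acid carrier that rose, an amino acid carrier that fell and the monoamine carrier that fell, because these 3 genes were called in both comparisons that hold Jak2VF interferon cells and kept those calls when any single array was left out. They are examples. Slc38a5 had the largest rise of any tested member in both comparisons. Members not shown, such as Slc29a1, had larger absolute log2 changes than Slc38a2 and Slc18a2. Each runs 5′ to 3′ on the gene's own strand from 250 bases before to 50 bases after the RefSeq transcript start of GRCm38.p6. Slc38a5 lies at chrX:8271131-8271430 on the plus strand, Slc38a2 at chr15:96699679-96699978 on the minus strand and Slc18a2 at chr19:59260628-59260927 on the plus strand. Capitals mark the letters AGATAA, a core bound by GATA factors, and CCNCNCCC, a core bound by KLF factors, each on either strand. A GATA match below means AGATAA only, and other letters that GATA factors bind were not searched.
Slc38a5: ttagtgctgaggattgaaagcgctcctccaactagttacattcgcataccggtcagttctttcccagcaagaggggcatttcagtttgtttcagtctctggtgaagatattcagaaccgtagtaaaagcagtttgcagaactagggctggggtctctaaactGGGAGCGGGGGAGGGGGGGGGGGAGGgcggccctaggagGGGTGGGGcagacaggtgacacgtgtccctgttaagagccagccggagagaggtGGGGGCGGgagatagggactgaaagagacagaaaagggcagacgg
Slc38a2: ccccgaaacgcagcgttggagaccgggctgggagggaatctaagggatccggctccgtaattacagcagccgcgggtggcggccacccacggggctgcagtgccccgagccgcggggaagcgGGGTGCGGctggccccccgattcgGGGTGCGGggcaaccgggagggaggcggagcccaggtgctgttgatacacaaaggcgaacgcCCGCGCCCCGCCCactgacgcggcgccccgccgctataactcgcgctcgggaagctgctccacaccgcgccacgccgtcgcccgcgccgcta
Slc18a2: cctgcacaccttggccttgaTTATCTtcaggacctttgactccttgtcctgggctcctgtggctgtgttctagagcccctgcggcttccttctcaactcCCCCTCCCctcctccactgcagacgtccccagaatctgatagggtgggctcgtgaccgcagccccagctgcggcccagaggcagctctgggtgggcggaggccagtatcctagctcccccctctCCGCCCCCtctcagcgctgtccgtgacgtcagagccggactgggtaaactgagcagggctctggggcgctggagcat
Slc38a5 held 10 matches to the KLF letters, most of them overlapping in one run of G, and no match to AGATAA. Slc38a2 held 4 KLF matches, and Slc18a2 held 1 GATA and 2 KLF matches. Of the 31 members called in any comparison 23 had a promoter window, and Slc7a5 was among those without one. GATA letters stood in 4 of those 23 (Slc12a3, Slc15a2, Slc18a2 and Slc22a17), in 9 of the 118 tested members with a window and in 11.4% of 27025 promoters of the same length. KLF letters stood in 21 of 23, in 92 of 118 (78.0%) and in 49.1% of all promoters. Median GC content was 61.7% in the called members, 61.8% in the tested members and 52.7% in all promoters. TGATGNAA, the letters of the ATF4 response element, TTCNNNGAA, bound by STAT factors, and the interferon-stimulated response element were in 0 of the 23 and in 4.06%, 8.47% and 3.49% of all promoters. The GATA match in Slc18a2 overlapped no KLF match. A match is a description of letters and not a binding site.

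Most calls among carrier genes came in the 2 comparisons that involve Jak2VF cells given interferon, as they did for all genes, but counts at an unadjusted p, given below, did not follow that order. A gene was called at a Benjamini-Hochberg adjusted p under 0.05 over the 9680 genes in limma's moderated test, and all adjusted p-values given for genes are of that test. With interferon in Jak2VF cells 12 members rose and 7 fell, 12.7% of 150, against 16% of all genes called, 6.51% higher and 9.46% lower. Between Jak2VF and WT cells with interferon 14 were higher and 11 lower, 16.7%, against 17.7% of all genes, 7.62% higher and 10.1% lower. In WT cells 1 member, 0.667%, rose with interferon, against 2.27% of all genes called and 1.26% called higher. With vehicle 1 member was higher in Jak2VF cells, against 0.424% of all genes called and 0.310% called higher. The shares of members called with Jak2VF interferon cells lay near the background. The 2 comparisons share the Jak2VF interferon arrays, so a gene may stand in both because of them.

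The median log2 change of the members was 0.13 with interferon in WT cells (0.05 over all genes), 0.02 in Jak2VF cells (−0.00048), 0.08 between genotypes with vehicle (0.04) and −0.04 with interferon (0.01). At an unadjusted p under 0.05 there were 47, 37, 38 and 44 of 150 members in the same order, and 3081, 2898, 2016 and 2842 of all genes. The median absolute change of the members was 0.34, 0.28, 0.30 and 0.31. The compared groups did not overlap for 8.67%, 30.7%, 11.3% and 34.7% of members, and for 10.7%, 30%, 9.8% and 27.9% of all genes. No member was called for the difference between the interferon changes of the genotypes, where 0.114% of all genes were called in limma and 21 members had an unadjusted p under 0.05. The smallest adjusted p there was 0.0795, for Slc18a2. Processing without background correction, and the authors' normalized table, each called 1 member for that difference. Across the 4 comparisons 31 members were called at least once and 119 never. All 19 calls of interferon in Jak2VF cells and all 25 between genotypes with interferon had their sign on each of the 2 slides. The slides hold the same arrays that gave the calls, so the shared sign is not independent support. With 2 arrays a group within a slide the members called were 0 and 0 for the former and 3 and 0 for the latter.

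**Figure D1:**
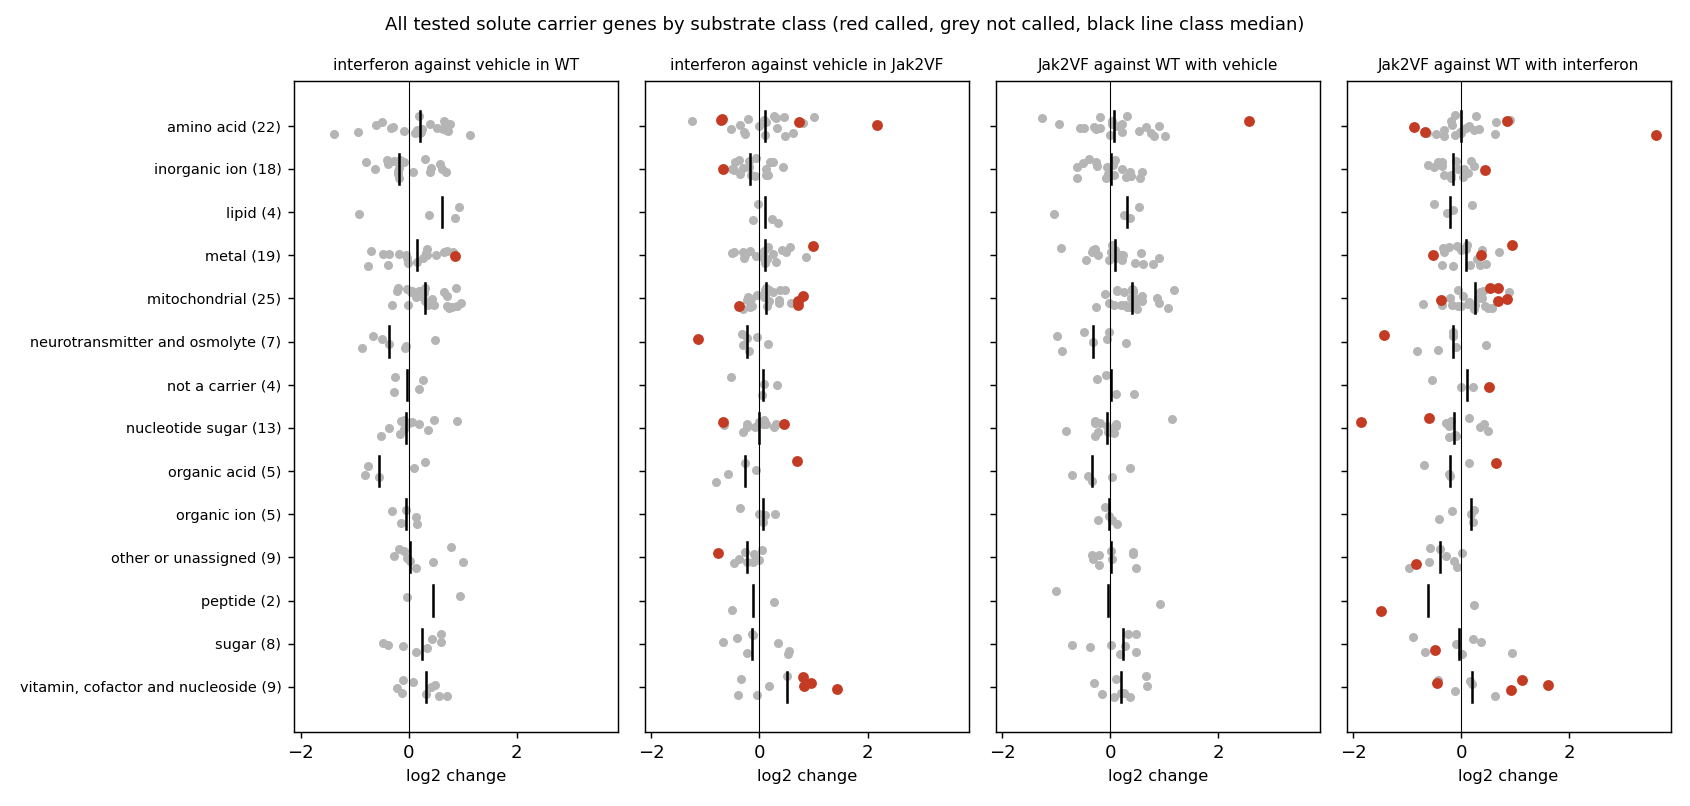
Log2 change of each of the 150 tested solute carrier genes, by substrate class (number of genes in brackets), in the 4 comparisons. Points are genes, red where called at an adjusted p under 0.05, and black lines are class medians. Most red points lie in the panels of interferon against vehicle in Jak2VF (19 genes) and Jak2VF against WT with interferon (25 genes).

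The arrays held 40 amino acid carriers, of which 22 were tested. With interferon in Jak2VF cells Slc38a5 and Slc7a5 rose and Slc38a2 and Slc7a6 fell. The same genes were called in the same directions between Jak2VF and WT cells with interferon. These 4 of 22 stood against 16% and 17.7% of all genes called, so the class shares lay near the background. Between genotypes with vehicle only Slc38a5 was called among the 22, and with interferon in WT cells limma called none, with 6 at an unadjusted p under 0.05. The class median log2 change was 0.22 with interferon in WT cells, 0.11 in Jak2VF cells, 0.08 between genotypes with vehicle and −0.01 with interferon.

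Slc38a5 encodes SNAT5, a sodium-coupled carrier of glutamine, histidine, serine and other small neutral amino acids. Its normalized log2 intensity on the 4 arrays was 7.28, 6.77, 5.79 and 7.27 in WT vehicle, where 3 of 4 arrays detected it, and 7.94, 6.82, 8.56 and 8.35 in WT interferon. It was 9.24, 9.63, 8.76 and 9.72 in Jak2VF vehicle and 11.49, 11.42, 11.33 and 11.83 in Jak2VF interferon. The Jak2VF interferon arrays all lay above every other array and the Jak2VF vehicle arrays above every WT array, while the WT groups overlapped.

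Slc38a5 rose 4.53-fold with interferon in Jak2VF cells (log2 2.18, SE 0.38, adjusted p = 0.00173). It was 5.91-fold higher in Jak2VF than in WT cells with vehicle (log2 2.56, SE 0.38, adjusted p = 0.00565). With interferon the genotypes differed 12.1-fold (log2 3.60, SE 0.38, adjusted p = 5.47e-05), the highest value of any tested member in that comparison. In WT cells the interferon change was 1.14 (SE 0.38, adjusted p = 0.0777) and was not called. It was called without WT interferon replicate 2 (0.0162), without WT vehicle replicate 4 (0.0445) and without the 3 dimmest arrays (0.0394). The difference between the interferon changes of the genotypes was 1.04 (SE 0.53, adjusted p = 0.399).

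On slides 1 and 2 the Slc38a5 change was 2.02 and 2.34 with interferon in Jak2VF cells and 0.36 and 1.92 in WT cells. Between genotypes it was 2.41 and 2.71 with vehicle and 4.07 and 3.13 with interferon. Its called changes were kept in all 16 omissions of a single array. The call between genotypes with vehicle was lost when the fit held only the groups compared (adjusted p = 0.104) and when arrays were centred on the median of all probes (0.0802). With array brightness as a covariate the changes were 1.64 in Jak2VF cells, 2.04 between genotypes with vehicle and 3.29 with interferon, all called, and 0.39 in WT cells.

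**Figure D2:**
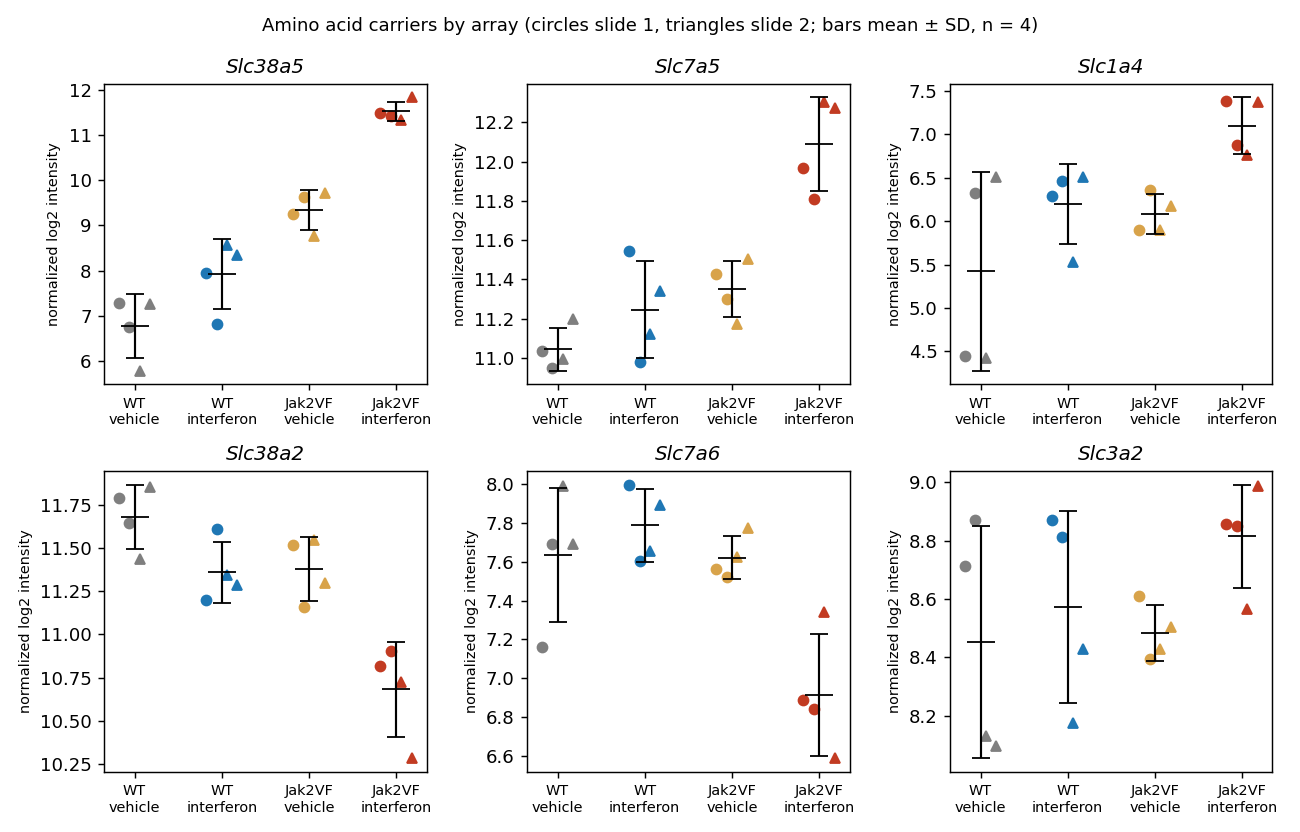
Normalized log2 intensity of 6 amino acid carrier genes on each array, by group, with circles for slide 1 and triangles for slide 2. Bars are the mean ± SD of 4 arrays. Slc38a5 stood at 11.33 to 11.83 in Jak2VF interferon and at no more than 9.72 on any other array, whereas the groups of Slc3a2 overlapped. The vertical scale differs between panels and does not start at 0.

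Slc7a5 encodes LAT1, which exchanges large neutral amino acids such as leucine for glutamine. It stood at 11.04, 10.95, 10.99 and 11.20 in WT vehicle, 11.54, 10.98, 11.12 and 11.34 in WT interferon, 11.43, 11.30, 11.17 and 11.50 in Jak2VF vehicle and 11.97, 11.81, 12.30 and 12.27 in Jak2VF interferon. All Jak2VF interferon arrays lay above every other array, and the other 3 groups overlapped. It rose with interferon in Jak2VF cells by 0.74 (SE 0.15, adjusted p = 0.00408; slides 0.52 and 0.95) and was higher by 0.84 in Jak2VF than in WT cells with interferon (SE 0.15, adjusted p = 0.00141; slides 0.63 and 1.05). Its partner Slc3a2, the glycoprotein heavy chain that LAT1 and the Slc7a6 product need at the cell surface, was not called, at 0.33 (adjusted p = 0.278) and 0.24 (0.467). Its 4 groups overlapped, between 8.10 and 8.99.

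Slc38a2 encodes SNAT2, a sodium-coupled carrier of alanine, glutamine and other small neutral amino acids. It stood at 11.79, 11.65, 11.43 and 11.85 in WT vehicle, 11.20, 11.61, 11.34 and 11.29 in WT interferon, 11.52, 11.16, 11.55 and 11.30 in Jak2VF vehicle and 10.82, 10.90, 10.72 and 10.29 in Jak2VF interferon. The last group lay below all other arrays. Slc38a2 fell by 0.70 with interferon in Jak2VF cells (SE 0.16, adjusted p = 0.00816; slides −0.48 and −0.92) and was lower with a difference of −0.68 in Jak2VF than in WT cells with interferon (SE 0.16, adjusted p = 0.0078; slides −0.54 and −0.81). A second Slc38a2 probe gave −0.16 and −0.35. With arrays centred on the median of all probes the change in Jak2VF cells was 0.074, of the opposite sign. Centring on the passing probes kept the signs and ended both calls (adjusted p = 0.0785 and 0.179).

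Slc7a6 encodes a light chain, related to LAT1, that exchanges arginine and lysine for glutamine and sodium. Its values were 7.16, 7.69, 7.99 and 7.69 in WT vehicle, 8.0, 7.61, 7.65 and 7.90 in WT interferon, 7.57, 7.52, 7.62 and 7.78 in Jak2VF vehicle and 6.89, 6.84, 7.34 and 6.59 in Jak2VF interferon. The Jak2VF interferon arrays lay below both groups they were compared with, but 1 WT vehicle array fell among them. The change was −0.71 with interferon in Jak2VF cells (SE 0.18, adjusted p = 0.0176; slides −0.68 and −0.73), a call lost without Jak2VF interferon replicate 4 (0.0714). It was −0.87 between genotypes with interferon (SE 0.18, adjusted p = 0.00443; slides −0.94 and −0.81).

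The remaining 18 amino acid carriers were not called in any comparison. Slc1a4, a carrier of alanine, serine and cysteine, stood at 7.39, 6.88, 6.76 and 7.37 in Jak2VF interferon and at 5.90, 6.36, 5.90 and 6.18 in Jak2VF vehicle. Those groups did not overlap, as held for 30% of all genes in that comparison, and the change of 1.02 had an adjusted p of 0.118. Slc7a8, which encodes the other large neutral amino acid light chain LAT2, had values of 7.34, 7.06, 7.43 and 7.26 in Jak2VF vehicle and 5.09, 6.45, 6.74 and 5.82 in Jak2VF interferon, a change of −1.24 (adjusted p = 0.0632). Slc38a1, a glutamine carrier close to SNAT2, was not well above background on any Jak2VF vehicle array and was detected on all 4 Jak2VF interferon arrays, at least 1.24-fold higher (adjusted p = 0.0835). The glutamine exchanger Slc1a5 changed by 0.47 in Jak2VF cells (adjusted p = 0.328) and the glycine carrier Slc6a9 by 0.10 (0.866).

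Slc36a3, of the family of proton-coupled amino acid carriers, came nearest to a call among the members not called with interferon in WT cells. It stood at 6.71, 5.83, 7.24 and 5.34 in WT vehicle and at 4.86, 5.32, 4.61 and 4.85 in WT interferon, where no array was well above background. The WT vehicle level was at least 2.06-fold higher (adjusted p = 0.0507). The highest values, 7.24 and 6.71, were on WT vehicle replicates 3 and 1, the dimmest arrays of the series (mean intensity 162 and 246). The brighter replicates 2 and 4 (414 and 398) gave 5.83 and 5.34, and the part of brightness was not tested. Such a bound sets the brighter mean against the dim group's mean of, per array, the lowest detected signal or the probe's own value, whichever was higher.

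Companion genes of amino acid supply were called in the same 2 comparisons. ATF4 is the transcription factor of the amino acid response, and of 34 listed targets 28 were tested. With interferon in Jak2VF cells 8 rose and 1 fell, 32.1% against 16% of all genes called, with a list median of 0.34 against −0.00048 for all genes. Between genotypes with interferon 7 were higher and 2 lower, 32.1% against 17.7%, with a median of 0.42 against 0.01. None was called in limma with interferon in WT cells or between genotypes with vehicle, where 9 and 11 had an unadjusted p under 0.05. Asns, asparagine synthetase, rose by 1.23 in Jak2VF cells (adjusted p = 0.000496) and was higher by 1.09 between genotypes (0.000599). Psat1, an enzyme of serine synthesis, rose by 0.78 (adjusted p = 0.0337), and Iars, the isoleucyl-tRNA synthetase, by 0.64 (0.0158). Mthfd2, a mitochondrial folate enzyme, was higher by 0.99 between genotypes with interferon (adjusted p = 0.0434). Vldlr, a lipoprotein receptor, fell by 2.10 in Jak2VF cells (adjusted p = 0.00301), and Ddit4, an inhibitor of mTORC1, was lower between genotypes at −1.52 (0.0133).

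Of 35 genes that sense amino acids at the lysosome or form the growth kinase complex mTORC1, 27 were tested. In Jak2VF cells given interferon 1 rose and 2 fell, 11.1% against 16% of all genes called. Between genotypes with interferon 1 was higher and 4 were lower, 18.5% against 17.7%, so these shares lay near or under the background. Sesn1, a sestrin that restrains mTORC1, fell by 0.42 in Jak2VF cells (adjusted p = 0.0292), and Lamtor4, a part of the lysosomal anchor, fell by 0.58 (0.0168). Eif4ebp1, an inhibitor of translation that mTORC1 inactivates and that stands in both lists, rose by 0.34 (adjusted p = 0.0444). Between genotypes Flcn, a lysosomal regulator of mTORC1, was lower at −0.47 (adjusted p = 0.00914). The list medians of 0.03 and 0.11 stood against −0.00048 and 0.01 for all genes.

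Carriers of nucleosides and vitamins gave 4 of the 12 rises with interferon in Jak2VF cells. Of 19 on the arrays 9 were tested, 4 rose and none fell, and the class median was 0.51. Over all genes 16% were called in that comparison and 17.7% between genotypes with interferon. Between genotypes with interferon 3 were higher and 1, the vitamin C carrier Slc23a2, was lower at −0.45 (adjusted p = 0.0484). That call was lost in 11 of 16 omissions of a single array, up to 0.141, and also with slide as a block (0.0567), brightness as a covariate (0.0634), no background correction (0.0677) and the authors' table (0.0671), among other settings. None was called in limma with interferon in WT cells, where 3 had an unadjusted p under 0.05, or between genotypes with vehicle, where 1 had.

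Slc29a1 encodes the equilibrative nucleoside carrier ENT1. It stood at 7.14, 8.11, 6.73 and 7.94 in WT vehicle, 8.72, 6.37, 8.43 and 8.36 in WT interferon, 7.89, 8.32, 8.04 and 8.29 in Jak2VF vehicle and 9.18, 9.47, 9.75 and 9.90 in Jak2VF interferon. The last group lay above every other array, and WT interferon replicate 2 was the lowest of all. The rise in Jak2VF cells was 1.44 (SE 0.43, adjusted p = 0.0334), or 2.72-fold, and between genotypes with interferon the gene was 3.04-fold higher (log2 1.60, SE 0.43, adjusted p = 0.0176). The first call was lost in 7 of 16 omissions, among Jak2VF arrays only, with adjusted p up to 0.103 without Jak2VF interferon replicate 4. The second was lost without that array (0.0603). With brightness as a covariate the first change was 0.57 and not called (0.126).

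Slc19a1, the reduced folate carrier, stood at 8.92, 9.46, 9.05 and 9.51 in WT vehicle, 9.92, 9.48, 9.83 and 9.97 in WT interferon, 9.89, 9.90, 9.76 and 10.07 in Jak2VF vehicle and 10.59, 10.51, 10.72 and 11.08 in Jak2VF interferon. Jak2VF interferon lay above all other arrays, and Jak2VF vehicle above WT vehicle. It rose by 0.82 in Jak2VF cells (SE 0.17, adjusted p = 0.00451; slides 0.66 and 0.98) and was higher by 0.92 between genotypes with interferon (SE 0.17, adjusted p = 0.00171; slides 0.85 and 1.0). In WT cells the interferon change was 0.57 (adjusted p = 0.0657), and between genotypes with vehicle it was 0.67 (0.0987).

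The thiamine carrier Slc19a2 ran from 8.15 to 8.49 in Jak2VF interferon, above the 7.84, 7.5, 7.40 and 7.39 of Jak2VF vehicle and every WT array. It was higher by 1.12 between genotypes with interferon (SE 0.25, adjusted p = 0.00678). The rise of 0.80 in Jak2VF cells had an adjusted p of 0.0416 and was lost in 11 of 16 omissions, up to 0.12. Slc29a2, a second nucleoside carrier, was dim, with 2 Jak2VF vehicle arrays and 4 Jak2VF interferon arrays detected. Its rise of 0.96 (adjusted p = 0.0394) was lost in 8 omissions, up to 0.13.

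**Figure D3:**
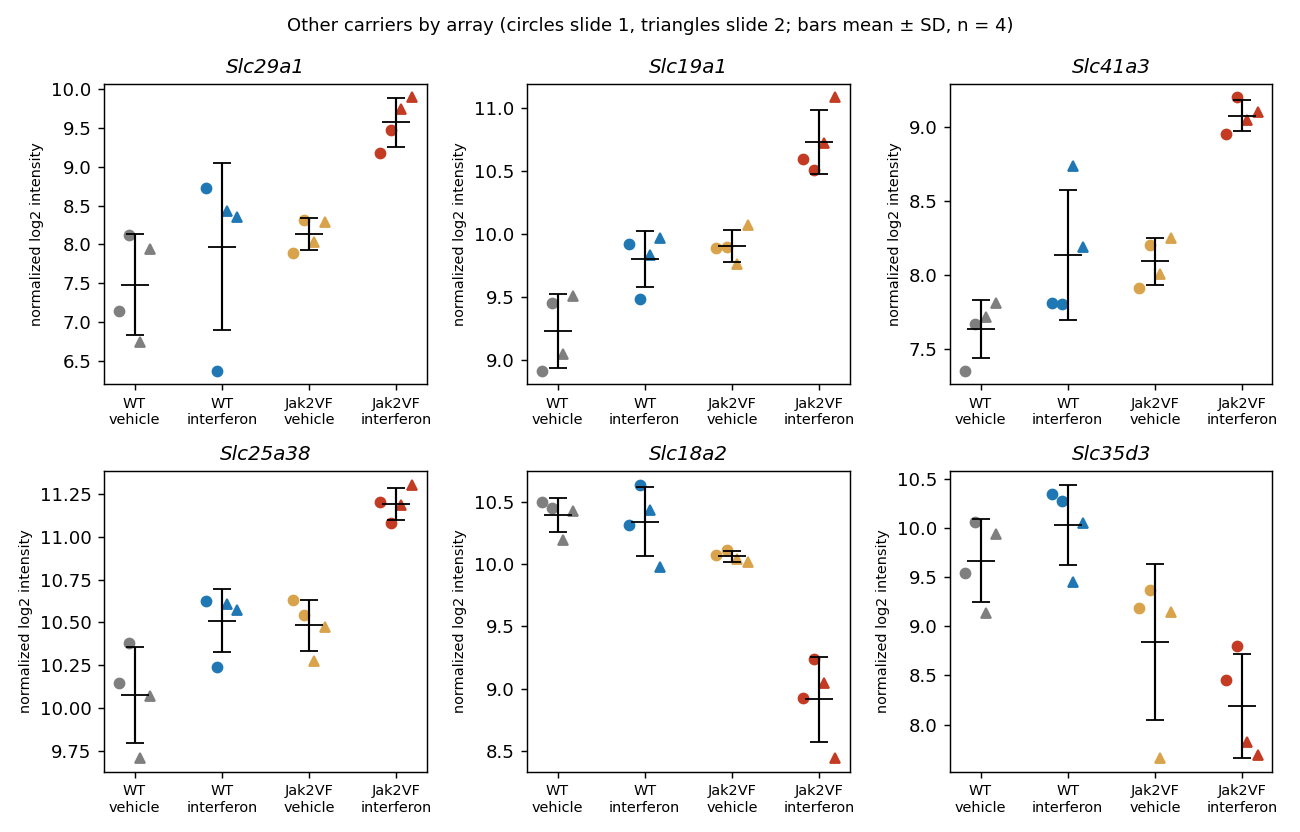
Normalized log2 intensity of 6 other carrier genes on each array, by group, with circles for slide 1 and triangles for slide 2. Bars are the mean ± SD of 4 arrays. Slc29a1, Slc19a1, Slc41a3 and Slc25a38 were highest in Jak2VF interferon, and Slc18a2 was lowest there, between 8.45 and 9.24. The vertical scale differs between panels and does not start at 0.

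Mitochondrial carriers made up the largest class among tested members, with 25 of 28 tested. In Jak2VF cells given interferon Slc25a42, Slc25a16 and Slc25a38 rose and Slc25a11 fell, 4 of 25 against 16% of all genes called. With interferon the genotypes differed too, and Slc25a42, Slc25a38, Slc25a26 and Slc25a1 were higher and Slc25a11 was lower. That is 5 of 25 against 17.7% of all genes called, so both class shares lay near the background. The class median was 0.30 with interferon in WT cells, 0.11 in Jak2VF cells, 0.41 between genotypes with vehicle and 0.26 with interferon.

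Slc25a38 imports glycine into mitochondria for the first step of haem synthesis. It stood at 10.15, 10.38, 9.71 and 10.07 in WT vehicle, 10.63, 10.24, 10.61 and 10.57 in WT interferon, 10.63, 10.54, 10.28 and 10.48 in Jak2VF vehicle and 11.21, 11.08, 11.19 and 11.31 in Jak2VF interferon. The last group lay above all other arrays, and the other 3 groups overlapped. The rise in Jak2VF cells was 0.71 (SE 0.14, adjusted p = 0.00435; slides 0.55 and 0.87), and the genotypes differed by 0.68 with interferon (SE 0.14, adjusted p = 0.00474; slides 0.71 and 0.66).

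The other mitochondrial calls were smaller or less stable. Slc25a42, a coenzyme A carrier, rose by 0.80 in Jak2VF cells (adjusted p = 0.0438), lost in 10 of 16 omissions up to 0.143, and Slc25a16 rose by 0.72 (0.0217), lost in 4 up to 0.0691. With brightness as a covariate both calls were lost, at 0.50 (adjusted p = 0.228) and 0.34 (0.064). Slc25a26, the S-adenosylmethionine carrier, was higher by 0.67 between genotypes with interferon (adjusted p = 0.0276), lost in 7 omissions up to 0.0724, and the citrate carrier Slc25a1 by 0.53 (0.0218), lost in 4 up to 0.0618. Slc25a11, the oxoglutarate and malate carrier, fell by 0.38 in Jak2VF cells (adjusted p = 0.0169), a call lost without Jak2VF vehicle replicate 3 (0.0564) or Jak2VF interferon replicate 4 (0.0599). Of its other probes 1 had the opposite sign, at 0.37, and the sign of Slc25a11 also turned, to 0.41, with arrays centred on all probes.

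Of 19 tested metal carriers 1 was called with interferon in Jak2VF cells, against 16% of all genes. Between genotypes with interferon 3 were called, against 17.7% of all genes. The magnesium carrier Slc41a3 rose with interferon in Jak2VF cells. It stood at 7.35, 7.67, 7.71 and 7.81 in WT vehicle, 7.81, 7.80, 8.74 and 8.19 in WT interferon, 7.91, 8.20, 8.01 and 8.25 in Jak2VF vehicle and 8.95, 9.20, 9.05 and 9.11 in Jak2VF interferon. The Jak2VF interferon arrays lay above all others. The rise was 0.98 (SE 0.18, adjusted p = 0.00269; slides 1.02 and 0.95), and the gene was higher by 0.94 between genotypes with interferon (SE 0.18, adjusted p = 0.00289; slides 1.27 and 0.61). Other Slc41a3 probes gave 1.27 and 0.78 in Jak2VF cells.

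Among zinc carriers Slc39a6 was lower between genotypes with interferon at −0.51 (adjusted p = 0.013) and Slc30a6 higher at 0.37 (0.0463, lost in 12 of 16 omissions up to 0.124). Slc39a3, a zinc importer, was the single member called with interferon in WT cells. It was at 4.89, 5.63, 5.0 and 5.82 in WT vehicle, where 2 of 4 arrays detected it, and at 6.16, 6.19, 6.2 and 6.21 in WT interferon, and the groups did not overlap. The rise of 0.85 (SE 0.21, adjusted p = 0.0492; slides 0.91 and 0.79) was lost in 12 of 16 omissions, up to 0.134. It was −0.25 with arrays centred on the median of the probes passing the filter.

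Slc18a2 encodes VMAT2, which loads serotonin, histamine and other amines into storage granules of platelets and mast cells. It stood at 10.50, 10.45, 10.19 and 10.43 in WT vehicle, 10.31, 10.64, 10.44 and 9.97 in WT interferon, 10.08, 10.11, 10.04 and 10.01 in Jak2VF vehicle and 8.93, 9.24, 9.05 and 8.45 in Jak2VF interferon. The Jak2VF interferon arrays lay below every other array. It fell by 1.14 with interferon in Jak2VF cells (SE 0.17, adjusted p = 0.000688; slides −1.01 and −1.28), a 2.21-fold decrease. Between genotypes with interferon it was 2.68-fold lower (log2 −1.42, SE 0.17, adjusted p = 0.000126; slides −1.39 and −1.46). In WT cells the change was −0.05 (adjusted p = 0.846). The calls were kept in all 16 omissions. Of 6 measured mast cell and basophil genes out of 8, 2 fell and none rose in Jak2VF cells, 33.3% against 16% of all genes called. Between genotypes with interferon 3 of the 6 were lower and none was higher, 50% against 17.7% of all genes called. The summed intensity of the 6 was 9999 to 13135 in WT interferon, 7926 to 10347 in Jak2VF vehicle and 5107 to 9592 in Jak2VF interferon.

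Slc35d3, a member of the nucleotide sugar carrier family that mice need to form platelet dense granules, was lower in Jak2VF than in WT cells with interferon. It stood at 9.54, 10.06, 9.13 and 9.95 in WT vehicle, 10.36, 10.28, 9.45 and 10.06 in WT interferon, 9.18, 9.37, 7.66 and 9.15 in Jak2VF vehicle and 8.45, 8.80, 7.82 and 7.68 in Jak2VF interferon. The Jak2VF interferon arrays lay below all WT arrays but overlapped with Jak2VF vehicle, where replicate 3 was low. The difference with interferon was −1.85 (SE 0.37, adjusted p = 0.00316; slides −1.69 and −2.0), or 3.60-fold, and the interferon change in Jak2VF cells was −0.65 (adjusted p = 0.257). Megakaryocyte genes were lower in the same comparison, where Selp, P-selectin of platelet granules, was at −2.11 (adjusted p = 4.21e-05). Their part in the Slc18a2 and Slc35d3 results was not tested.

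Of 13 tested carriers of that family 2 were called in each of the 2 comparisons that hold Jak2VF interferon cells. Over all genes 16% were called with interferon in Jak2VF cells and 17.7% between genotypes with interferon. Slc35e3 fell by 0.68 in Jak2VF cells (adjusted p = 0.0132), with a sign turned to 0.042 under centring on all probes. Slc35a4 rose by 0.45 (0.029, lost in 5 omissions up to 0.11). Slc15a2, a carrier of small peptides, was at 7.03, 7.28, 7.48 and 7.26 in WT interferon and 6.44, 5.85, 5.31 and 5.51 in Jak2VF interferon, with no overlap. It was 2.80-fold lower in the latter (log2 −1.48, SE 0.34, adjusted p = 0.00816; slides −1.01 and −1.96). The difference with vehicle was −1.01 (adjusted p = 0.156). Slc14a1, the urea carrier of red cells, was at 11.06, 10.15, 10.36 and 10.66 in WT interferon and 9.58, 9.77, 9.92 and 9.63 in Jak2VF interferon, lower by a log2 difference of −0.83 (adjusted p = 0.0476), lost in 12 omissions up to 0.133.

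Each remaining class held at most 1 call per comparison. Tested were 5 organic acid, 18 inorganic ion, 8 sugar and 9 other or unassigned members, and 4 that are not carriers. Of all genes 16% were called with interferon in Jak2VF cells and 17.7% between genotypes with interferon. Slc16a6, of the monocarboxylate carrier family, was at 9.61, 9.20, 9.31 and 9.31 in Jak2VF vehicle and 10.29, 10.07, 9.68 and 10.19 in Jak2VF interferon, and these did not overlap. It rose by 0.70 (SE 0.18, adjusted p = 0.0155), lost without Jak2VF interferon replicate 4 (0.0566). Slc22a17, a receptor for lipocalin, fell by 0.76 (adjusted p = 0.0399) with 1 Jak2VF interferon array above background, and Slc8b1, the mitochondrial sodium and calcium exchanger, by 0.68 (0.0399), each lost in 8 omissions up to 0.121 and 0.129. Between genotypes with interferon the glucose carrier Slc2a3 was lower at −0.49 (adjusted p = 0.0141), with a sign turned to 0.061 under centring on all probes. The sodium and chloride carrier Slc12a3 was higher at 0.43 (adjusted p = 0.0145), lost without Jak2VF interferon replicate 4 (0.052). Slc4a1ap, which is no carrier, was higher at 0.52 (adjusted p = 0.0397), lost in 9 omissions up to 0.114. The 4 lipid and 5 organic ion carriers tested held no call in limma in any comparison. At an unadjusted p under 0.05 stood 3 lipid carriers for interferon in WT cells, 1 lipid carrier between genotypes with vehicle, and 1 organic ion carrier in each of the 2 comparisons that hold Jak2VF interferon cells.

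**Figure D4:**
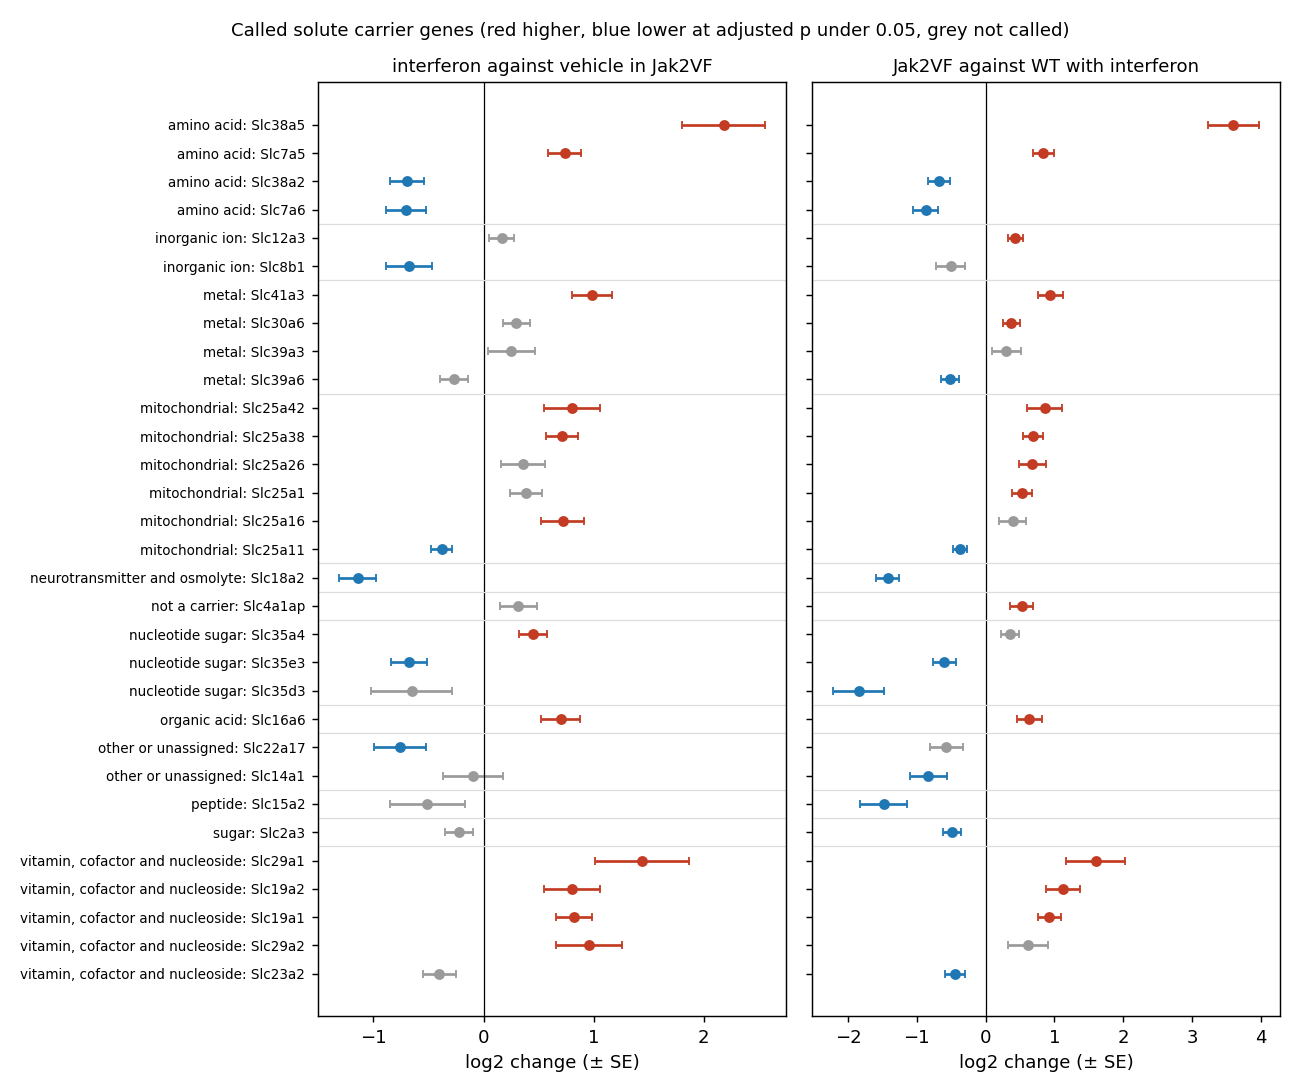
Log2 change ± SE of the 31 solute carrier genes called in any comparison, by substrate class, for interferon against vehicle in Jak2VF cells and for Jak2VF against WT with interferon. Red is called higher, blue called lower and grey not called. Slc38a5 has the largest positive values, 2.18 and 3.60, and the panels share the Jak2VF interferon arrays and differ in scale.

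Omission of single arrays moved the counts. With interferon in Jak2VF cells 8 of the 19 calls were kept in all 16 omissions (Slc18a2, Slc19a1, Slc25a38, Slc35e3, Slc38a2, Slc38a5, Slc41a3 and Slc7a5), and the count was 8 without Jak2VF interferon replicate 4, 11 without Jak2VF vehicle replicate 3, 12 without Jak2VF vehicle replicate 1 or Jak2VF interferon replicate 3, and 29 without WT vehicle replicate 3. Between genotypes with interferon 13 of 25 were kept in all omissions, and the count was 14 without Jak2VF interferon replicate 4 and 38 without WT vehicle replicate 3. With interferon in WT cells it was 27 without WT interferon replicate 2, 20 without WT vehicle replicate 2, 19 without WT vehicle replicate 4, 2 without Jak2VF vehicle replicate 3 and 0 in the other 12 omissions. Between genotypes with vehicle it was 7 without WT vehicle replicate 4, 4 without WT vehicle replicate 2 and 2 without WT interferon replicate 2. With brightness as a covariate 11 of the 19 and 22 of the 25 calls were kept. Besides Slc29a1, Slc25a42 and Slc25a16 above, the calls it ended with interferon in Jak2VF cells were those of Slc19a2 (0.52), Slc29a2 (0.71), Slc35a4 (0.28), Slc8b1 (−0.38) and Slc22a17 (−0.60). It also ended the calls between genotypes with interferon of Slc23a2 (−0.42), Slc25a42 (0.68) and Slc4a1ap (0.44). Brightness itself differed by group, at 391 to 616 in Jak2VF vehicle and 602 to 1130 in Jak2VF interferon. The covariate thus cannot be fully told apart from treatment, and an ended call is not shown to come from brightness.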

How the data were processed

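Expression was measured on 16 bead arrays. Per the file headers, the deposited table gives an average signal per probe, a linear-scale intensity, and a p-value of detection above the negative controls. The scanner software is not given in the sources used here. Another table holds intensity values the authors normalized by steps not given, with the ranks of the scanner values on each array (rank correlation 1) and upper percentiles equal on all 16 arrays, and served as an alternative.

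The neqc function of limma 3.58.1 in R 4.3.3 corrected background (normexp, offset 16), quantile normalized the arrays and took log2. Figures used matplotlib 3.10.9. A probe needed a detection p under 0.05 on at least 4 arrays. Symbols were updated to GRCm38.p6 names (17548 current, 7082 updated, 1046 kept, 21 dates dropped), while membership followed the deposited symbol. A single fit of the 4 group means covered every array and 9680 genes (lmFit, eBayes), with Benjamini-Hochberg adjustment in each of 5 comparisons. The procedure was tested on simulated data. Arrays lay on 2 slides, read from the array names, each with 2 arrays of every group. Replicate numbers follow series order and pair nothing. The number of arrays limits the precision.

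Members, substrate classes, companion lists and alternatives were chosen with earlier results of these data known. Classes came from general knowledge of the carriers. Named were Slc38a5, the amino acid class, the 10 called members of largest change without overlap in each comparison, up to 3 called members of each other class (or the smallest p), and up to 4 called genes of each list. A gene that the rule selects is not reported here, while counts include it. Slc23a2 and Slc25a1 stand outside that rule and were chosen after their values were seen. Alternatives tried were median centring, no background correction, no filter, detection p under 0.01, the authors' table, slide as a block, each slide alone, brightness as a covariate, omission of the 3 dimmest arrays, the mean of a gene's probes, a fit of the compared groups alone, and omission of each array. Median centring was first run over all probes and then, after its result was seen, over the probes passing the filter. Both are given. Promoters came from RefSeq.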

Additional observations from a re-analysis of the deposited data

Results flagged for a closer look

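In each group of 4 arrays the gap from the highest or lowest array to its nearest neighbour was divided by the range of the group, for the 67 named members. It passed Dixon's critical value for 4 samples in 19 of 268 groups, where chance at 1 in 20 would give 13.4. WT vehicle replicate 2 stood apart for Slc12a3 (0.858, highest at log2 9.29) and Slc29a2 (0.851, highest at log2 5.76). Jak2VF vehicle replicate 3 stood apart for Slc14a1 (0.882, lowest at log2 9.12), Slc35d3 (0.873, lowest at log2 7.66) and Slc45a4 (0.898, highest at log2 7.14). WT vehicle replicate 3 stood apart for Slc19a2 (0.833, highest at log2 7.68), Slc27a4 (0.915, highest at log2 7.29) and Slc38a4 (0.914, lowest at log2 4.57). Jak2VF interferon replicate 4 stood apart for Slc1a5 (0.844, highest at log2 6.45). Jak2VF interferon replicate 1 stood apart for Slc25a3 (0.904, lowest at log2 13.13) and Slc36a3 (0.843, highest at log2 5.26). WT interferon replicate 2 stood apart for Slc25a38 (0.853, lowest at log2 10.24), Slc29a1 (0.845, lowest at log2 6.37), Slc35a3 (0.985, lowest at log2 4.99), Slc35a4 (0.934, lowest at log2 10), Slc6a4 (0.845, highest at log2 5.72) and Slc7a7 (0.916, lowest at log2 5.38). WT vehicle replicate 1 stood apart for Slc35e3 (0.893, highest at log2 9.58). Jak2VF interferon replicate 3 stood apart for Slc35e3 (0.851, highest at log2 8.35). The shares in brackets are gap over range. No cause was tested.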

How the results depend on the processing

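No paired analysis was possible because the labels give no replicate numbers, and those used here follow series order. Members called with interferon in WT cells (1 above) numbered 10 without background correction, 9 in the authors' table, 3 with centring on passing probes, 3 with the mean of a gene's probes, 3 without the 3 dimmest arrays, 2 at detection p under 0.01, and 0 with no filter, with slide as a block, within slide 1, within slide 2, with brightness as a covariate and with only the groups compared. Slc39a3, the member called above, was not called without background correction or in the authors' table. It was also not called with centring on passing probes or without the 3 dimmest arrays. Omitting single arrays gave 0 to 27. With interferon in Jak2VF cells (19) there were 48 without the 3 dimmest arrays, 42 with only the groups compared and 0 within each slide, and 8 to 29 with single omissions. Between genotypes with vehicle (1) there were 2 with centring on passing probes, 3 without the dimmest arrays, 0 within each slide and 0 with only the groups compared, and 1 to 7 with single omissions. With interferon (25) there were 41 without the dimmest arrays, 41 with only the groups compared, 3 within slide 1 and 0 within slide 2, and 14 to 38 with single omissions. For the difference of changes (0) there was 1 without background correction and 1 in the authors' table, and 0 in every single omission. Other settings stayed within 1.5 times, among them 27 (interferon in Jak2VF cells) and 31 (genotypes with interferon) with centring on passing probes.

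Centring on the median of all probes, most of them at background, was the planned form, and centring on passing probes was added after seeing its result. The first moved the median of all genes to 1.12, 0.56, 0.89 and 0.33 in the 4 comparisons and −0.50 for the difference, and called 86 (85 higher), 1, 0, 1 and 0 members. Centring on passing probes moved it to −0.14, −0.09, −0.05, −0.01 and 0.10, with splits of 0 higher and 3 lower, 13 and 14, 1 and 1, and 18 and 13 in the 4 comparisons. The sign turned for Slc39a3 with interferon in WT cells (−0.25, passing probes) and, with all probes, for Slc25a11 (0.41), Slc35e3 (0.042) and Slc38a2 (0.074) with interferon in Jak2VF cells and Slc25a11 (0.19) and Slc2a3 (0.061) between genotypes with interferon. The cause was not tested. Only 2 arrays a group remain within a slide, and WT vehicle, the dimmest group, detected the fewest members.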
